A study of Mus musculus with 4 samples.

Results

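Chemokine ligand and receptor genes other than Cxcl12, Cxcr4 and Cxcr7 were compared between Osr1+ cells with and without intact Osr1. The family was picked for description with earlier results of these data known, and its members were then taken by symbol, as every Ccl, Cxcl, Cx3cl or Xcl ligand and every Ccr, Cxcr, Cx3cr or Xcr receptor. They were 55 of the 23284 symbols in the count files, 38 ligands and 17 receptors. RNA was sequenced from GFP+ cells that were sorted by FACS from the limbs of C57BL/6J mouse embryos at E13.5. The GCE allele is a knock-in of eGFP and CreERt2 at the Osr1 locus, so that GFP marks cells in which the locus is active. The samples were 2 from heterozygous Osr1 GCE/+ embryos, which keep an intact Osr1 allele, and 2 from homozygous Osr1 GCE/GCE embryos, which have none. All 4 samples therefore carry the reporter, GCE/GCE cells with an additional copy of it, and effects of reporter dose on the sort cannot be told apart from effects of genotype. Osr1 itself had 81.9 and 79.1 counts per 1000000 (CPM) in the GCE/+ samples and 11.9 and 13.9 CPM in the GCE/GCE samples.

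Chemokines are small secreted proteins that attract cells along a concentration gradient. Their families (CC, CXC, CX3C and XC) are named for the spacing of the first conserved cysteines. They bind receptors that span the membrane and signal through Gi proteins, and most inflammatory ligands bind several receptors while most receptors bind several ligands. In tissues, macrophages are a well-known source of many inflammatory CC and CXC ligands, and fibroblasts, endothelial cells and epithelial cells also make a subset of them. Receptors such as Cx3cr1, Ccr1 and Ccr2 are best known from monocytes and macrophages.

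The counts of a sample summed to between 52121596 and 61402140, and 3 counts, taken as the floor, amounted to 0.0489 to 0.0576 CPM. This floor covers counting error only. All CPM below were scaled by TMM, a normalization that sets the bulk of genes equal between samples. GCE/GCE replicate 1 stood apart by Xist, with 1142 CPM against at most 2.63 CPM in the other samples, and values without this library are given where they change a call. Markers of fibroblasts summed to between 19470 and 24570 CPM in the 4 samples and markers of macrophages to between 197 and 460.0 CPM, so that the sorted cells were not free of macrophage RNA.

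A gene was called at a Benjamini-Hochberg adjusted p under 0.1, taken from the quasi-likelihood test of edgeR on all 15645 genes with enough counts. Of the 38 ligands, 22 had enough counts to be tested. Lower levels in GCE/GCE cells were called for 8 of these 22 ligands (36.4%) and higher levels for 0, against 0.895% of all tested genes called lower and 0.888% called higher. Of the 17 receptors, 7 could be tested and 1, Ccr1, was called lower, none higher. DESeq2 also called 0 members higher. Both GCE/GCE values lay below both GCE/+ values for 21 of the 29 tested members, where 19.1% of all tested genes did so. For 1 member, Ccl27a, both lay above, as they did for 19.2% of all genes. The median log2 fold change was -0.77 over the tested ligands and -0.88 over the tested receptors, with 0.003 over all tested genes. The tested members had to pass a filter on low counts, and the other 26 members are described further below. For a gene taken alone, the smallest two-sided p of an exact permutation test over these 4 samples is 0.333, and each call therefore borrows its error from the other genes.

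**Figure D1:**
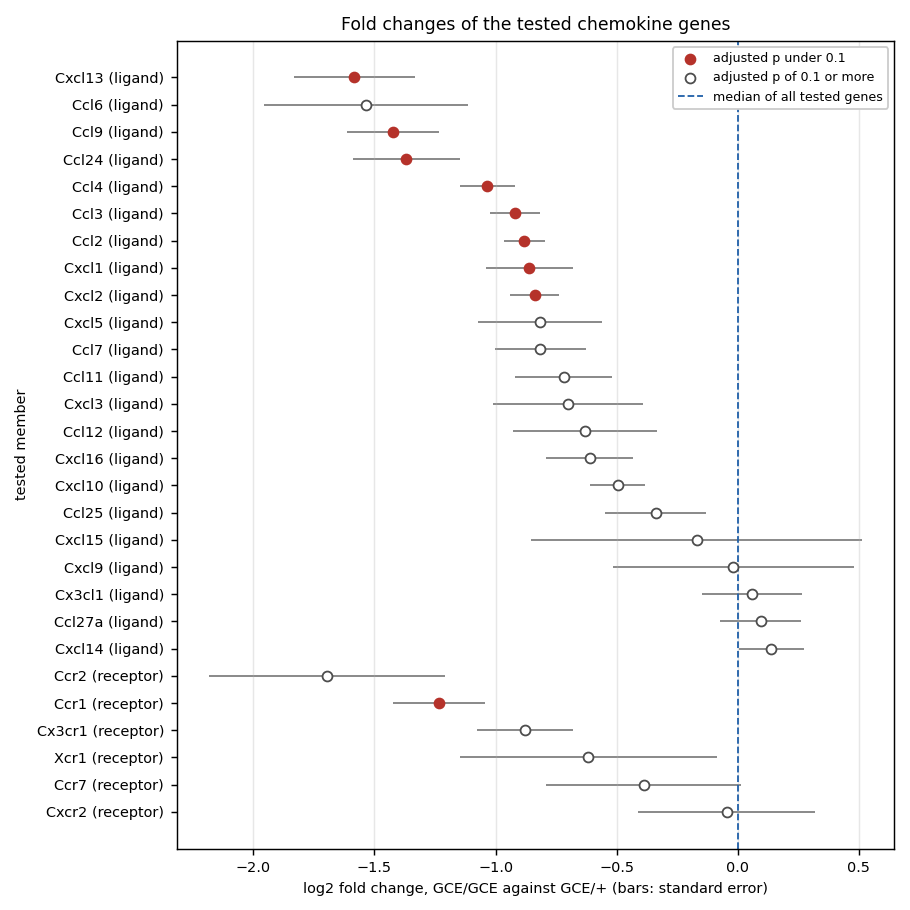
Log2 fold change of 28 tested members in GCE/GCE against GCE/+ cells (x axis, bars are standard errors), ligands above receptors, with filled points for an adjusted p under 0.1 and a dashed line at the median of all tested genes. The 9 filled points lie between -1.58 and -0.84, and 25 of the 28 points lie below 0.

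Among the CC ligands of CCR1, listed here with Ccl4 and Ccl5, which attract monocytes and macrophages, 3 of 4 tested members were called lower, with a median log2 fold change of -1.23. Ccl3 had 46.3 and 49.0 CPM in the GCE/+ samples and 26.4 and 23.97 CPM in the GCE/GCE samples, a fall by 0.92 on the log2 scale (SE 0.10, edgeR adjusted p = 0.0142). Its neighbour on chromosome 11, Ccl4, had 41.5 and 43.4 CPM against 22.4 and 19.0 CPM, a log2 fold change of -1.03 (SE 0.11, edgeR adjusted p = 0.0140). For Ccl3 and Ccl4 the difference between the genotypes was far larger than that between the samples of a genotype. Ccl9, a ligand that mouse myeloid cells make, had 5.76 and 5.32 CPM against 2.26 and 1.88 CPM. This was a log2 fold change of -1.42 (SE 0.19, edgeR adjusted p = 0.0242). Ccl6, a close relative of Ccl9, was near 1 CPM, with 1.02 and 1.24 CPM in GCE/+ samples and 0.569 and 0.212 CPM in GCE/GCE samples. Its groups did not overlap, yet GCE/GCE replicate 2 was far below replicate 1, and the log2 fold change of -1.54 (SE 0.42) was not called (edgeR adjusted p = 0.177). Without GCE/GCE replicate 1, Ccl6 was called, at -2.40 (edgeR adjusted p = 0.000583), while without GCE/GCE replicate 2 it was at -0.99 (edgeR adjusted p = 0.462). It was not called either when a GCE/+ sample was left out. Ccl5, the remaining ligand of this class, reached at most 1 count.

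Among the ligands of CCR2, the receptor that draws monocytes out of the blood, Ccl2 was called. It had 64.6 and 64.5 CPM in the GCE/+ samples and 34.4 and 35.7 CPM in the GCE/GCE samples. The samples of a genotype were nearly equal, and Ccl2 had the smallest adjusted p of all members, with a log2 fold change of -0.88 (SE 0.08, edgeR adjusted p = 0.0107). Ccl7 had 22.7 and 17.9 CPM against 9.39 and 13.6 CPM. The groups of Ccl7 did not overlap but the samples within them differed more, and the log2 fold change of -0.82 (SE 0.19, edgeR adjusted p = 0.109) missed the threshold. Ccl7 was called when GCE/+ replicate 2, GCE/GCE replicate 1 or GCE/GCE replicate 2 was left out (edgeR adjusted p = 0.0469, 0.0508 and 2.9e-06), and not without GCE/+ replicate 1 (edgeR adjusted p = 0.314). It was also called by DESeq2 (adjusted p = 0.00196), without the filter on low counts and with transcript length offsets. Ccl12 had 2.74 and 1.95 CPM against 1.15 and 1.88 CPM, with GCE/GCE replicate 2 close to GCE/+ replicate 2 (log2 fold change -0.63, SE 0.30, edgeR adjusted p = 0.53). Ccl8 reached at most 1 count.

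The eotaxins Ccl11 and Ccl24 attract eosinophils through CCR3. Ccl24, which macrophages are known to make, had 3.02 and 3.58 CPM in GCE/+ samples and 1.34 and 1.21 CPM in GCE/GCE samples, a log2 fold change of -1.37 (SE 0.22, edgeR adjusted p = 0.0363). Ccl11, known as a product of fibroblasts, had 10.3 and 8.07 CPM against 6.55 and 4.62 CPM. Its groups did not overlap, but a log2 fold change of -0.72 (SE 0.20) was not called (edgeR adjusted p = 0.186). Without GCE/GCE replicate 1, that of Ccl11 was -1.0 with an edgeR adjusted p of 0.00114, and without GCE/+ replicate 2 it was -0.88 (edgeR adjusted p = 0.0706). It was -0.54 and -0.49 and not called without GCE/+ replicate 1 or GCE/GCE replicate 2 (edgeR adjusted p = 0.522 and 0.482). Among the alternatives that kept all samples, Ccl11 was called only by DESeq2 (adjusted p = 0.0561) and with the replicate block (edgeR adjusted p = 0.0925). Ccl26, the remaining eotaxin, reached at most 1 count.

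The CXC ligands with an ELR motif attract neutrophils through CXCR2, and all 5 that match the name rule could be tested. Ppbp, a further ligand of this class with a name outside the rule, is given below. They lie next to each other on chromosome 5, and 2 of them were called. Cxcl2 had 60.2 and 55.6 CPM in the GCE/+ samples and 34.5 and 30.2 CPM in the GCE/GCE samples, a log2 fold change of -0.84 (SE 0.10, edgeR adjusted p = 0.0213). Cxcl1 had 22.8 and 15.99 CPM against 11.8 and 9.61 CPM, a log2 fold change of -0.86 (SE 0.18, edgeR adjusted p = 0.0854). The call of Cxcl1 leaned on GCE/+ replicate 1, since without that sample the log2 fold change was -0.59 and the edgeR adjusted p 0.188. Cxcl5 had 1.46 and 1.38 CPM against 0.861 and 0.752 CPM, and Cxcl3 had 0.706 and 0.631 CPM against 0.431 and 0.392 CPM. For Cxcl5 and Cxcl3 the groups did not overlap, and their log2 fold changes of -0.82 (SE 0.26) and -0.70 (SE 0.31) were close to those of Cxcl1 and Cxcl2, but they were not called (edgeR adjusted p = 0.247 and 0.492). Cxcl15, best known from the lung, had at most 14 counts in a sample and a log2 fold change of -0.17 (SE 0.68).

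The 250 bases before the start of each gene were searched on both strands, in RefSeq promoters of GRCm38.p6, for letters that the factor NF-kB can bind, GGGA and TTCC with 2 bases of any kind between them. These promoters are shown because Cxcl1 and Cxcl2, the called members of the cluster, and their neighbour Cxcl3 share the same run of letters at a like distance from the start. Capitals mark a run of overlapping matches to the NF-kB letters, 1 on each strand, and, in Cxcl3, also a TATA box (TATAAA).
Cxcl1, chr5:90890995-90891244, plus strand: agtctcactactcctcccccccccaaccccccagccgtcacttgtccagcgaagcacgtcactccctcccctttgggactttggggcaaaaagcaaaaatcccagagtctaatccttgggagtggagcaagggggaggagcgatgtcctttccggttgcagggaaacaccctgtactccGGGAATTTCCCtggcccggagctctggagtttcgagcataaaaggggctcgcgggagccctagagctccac
Cxcl2, chr5:90903649-90903898, plus strand: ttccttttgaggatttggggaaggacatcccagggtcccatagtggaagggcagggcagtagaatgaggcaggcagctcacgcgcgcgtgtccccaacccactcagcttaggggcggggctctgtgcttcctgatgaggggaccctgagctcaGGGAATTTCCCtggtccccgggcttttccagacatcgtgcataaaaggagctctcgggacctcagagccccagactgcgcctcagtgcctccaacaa
Cxcl3, chr5:90785851-90786100, plus strand: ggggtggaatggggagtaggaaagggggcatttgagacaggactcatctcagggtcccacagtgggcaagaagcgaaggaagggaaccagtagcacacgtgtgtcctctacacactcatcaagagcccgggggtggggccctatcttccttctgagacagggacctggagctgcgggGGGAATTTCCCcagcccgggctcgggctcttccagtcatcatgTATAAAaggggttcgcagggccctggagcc

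The run begins 71 bases before the start in Cxcl1, 97 bases before it in Cxcl2 and 73 bases before it in Cxcl3. Promoters were given for 39 of the 55 members and 20 of the 29 tested members. Those of Ccl11, Ccl2, Ccl24, Ccl4, Ccl7, Ccr7, Cxcl16 and Cxcl5, among others, were not used here. The NF-kB letters were found in 6 of the 39 members and in 1.21% of all 32851 promoters, or 1.36% of the 27025 genes with one. The members with them were Cxcl1, Cxcl2, Cxcl3, Cxcl10, Ccl1 and Ccr3, of which Cxcl3 and Cxcl10 were tested and not called and Ccl1 and Ccr3 had too few counts. Of the 6 called members with a promoter, Ccl3, Ccl9, Ccr1 and Cxcl13 held no match in this window. The TATA letters were found in 11 of the 39 members, Ccl9 and Cxcl13 among the called ones. They were in 12.4% of all promoters, or 14.3% of the genes with one. A core of the Osr1 binding motif (GCTACTGT) was found in 0 of the 39 members and in 0.749% of all promoters, or 0.881% of the genes. A match is a description of letters, and no match says only that they were not in this window.

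The ligands of CXCR3, Cxcl9, Cxcl10 and Cxcl11, are induced by interferons and attract T cells. Cxcl10 had 14.5 and 15.5 CPM in the GCE/+ samples and 10.8 and 10.5 CPM in the GCE/GCE samples. The groups of Cxcl10 did not overlap and the log2 fold change of -0.50 (SE 0.11) just missed the threshold (edgeR adjusted p = 0.108). Cxcl10 was called by DESeq2 (adjusted p = 0.056) and without the filter on low counts (edgeR adjusted p = 0.0827), and in none of the other fits. Cxcl9 varied between samples of 1 genotype, with 1.51 and 0.478 CPM in GCE/+ and 1.28 and 0.719 CPM in GCE/GCE samples (log2 fold change -0.02, SE 0.50). Cxcl11 had at most 6 counts. The promoter of Cxcl10 is shown because it alone among the tested members held both the NF-kB letters and those of an interferon response element, GAAA repeated after 2 bases of any kind, and both are in capitals. The interferon letters were found in 3 of the 39 members (Cxcl10, Cxcl14 and Ccl19) and in 2.98% of all promoters, or 3.46% of the genes.
Cxcl10, chr5:92348890-92349139, minus strand: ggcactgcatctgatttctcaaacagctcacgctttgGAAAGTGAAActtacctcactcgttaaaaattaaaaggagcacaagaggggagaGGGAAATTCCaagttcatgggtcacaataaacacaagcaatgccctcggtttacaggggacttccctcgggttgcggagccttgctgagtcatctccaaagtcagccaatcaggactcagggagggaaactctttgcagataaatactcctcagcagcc

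Cxcl13, which guides B cells through CXCR5 in lymphoid organs, had the largest fall among the called members. It had 9.92 and 13.8 CPM in the GCE/+ samples and 4.93 and 2.99 CPM in the GCE/GCE samples, a log2 fold change of -1.58 (SE 0.25, edgeR adjusted p = 0.0354). Both genotypes showed some spread in Cxcl13, but the lowest GCE/+ value was still above the highest GCE/GCE value. Cxcr5 itself had at most 9 counts in a sample.

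The remaining 5 tested ligands were not called. Cxcl14, a tissue chemokine whose receptor is not settled, drew the most counts of all members, with 159.0 and 117 CPM in the GCE/+ samples and 148 and 157 CPM in the GCE/GCE samples. Its groups overlapped, with a log2 fold change of 0.14 (SE 0.14, edgeR adjusted p = 0.861). Cx3cl1, the membrane-bound ligand of Cx3cr1, had 4.62 and 3.39 CPM against 3.82 and 4.53 CPM, and its groups overlapped (log2 fold change 0.06, SE 0.21). The skin chemokine Ccl27a had 3.93 and 4.28 CPM against 4.41 and 4.35 CPM, a log2 fold change of 0.09 (SE 0.17) that lay within its error. Ccl25, a ligand of CCR9 known from thymus and gut, had 2.51 and 2.47 CPM against 1.84 and 2.09 CPM (log2 fold change -0.34, SE 0.21). Cxcl16, a membrane-bound ligand of CXCR6, had 4.14 and 3.96 CPM against 2.60 and 2.70 CPM. The groups of Cxcl16 did not overlap, and its log2 fold change of -0.61 (SE 0.18) was not called (edgeR adjusted p = 0.21). Of its exons, 552 bases are shared with Zmynd15 on the other strand, and Ccl25 and Ccl27a share 56 and 8 bases with Elavl1 and Il11ra1. Reads in such shared bases cannot be assigned by strand, since the kit does not keep it. All ligands together summed to 483.4 and 430.3 CPM in the GCE/+ samples and to 329.6 and 328.2 CPM in the GCE/GCE samples. Apart from Cxcl14, they summed to 324 and 313 CPM in the GCE/+ samples and to 182 and 171 CPM in the GCE/GCE samples.

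**Figure D2:**
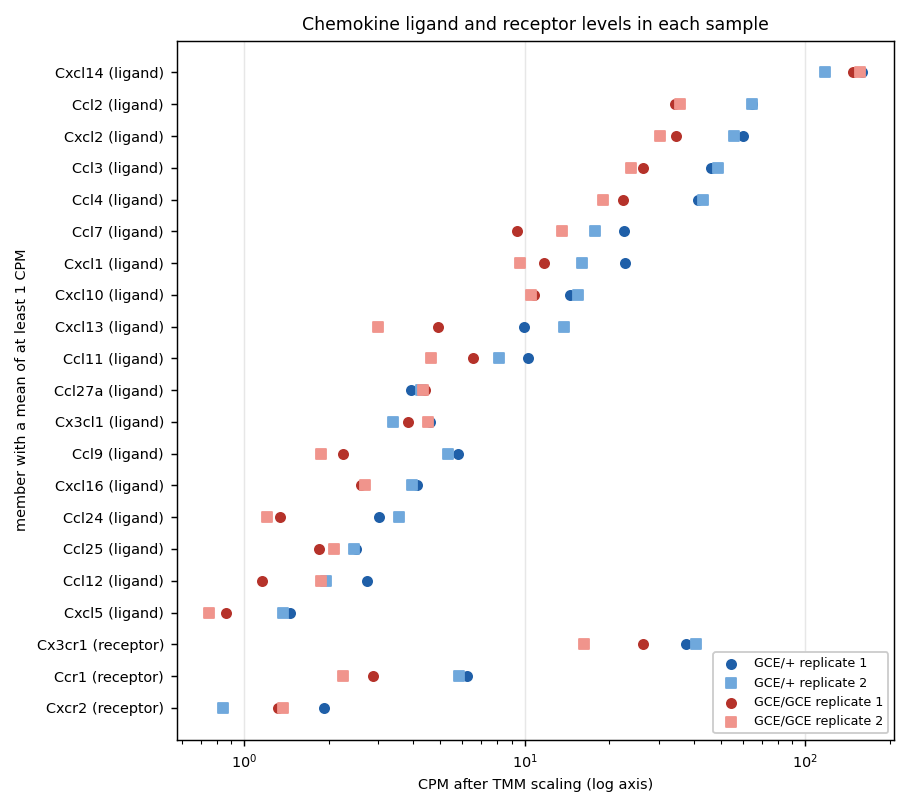
CPM (x axis, log scale) in each of the 4 samples for the 21 members with a mean of at least 1 CPM, 18 ligands above 3 receptors, each group ordered by its mean. The red GCE/GCE points lie to the left of the blue GCE/+ points for most members, with Ccl27a to the right and Cxcl14, Cx3cl1 and Cxcr2 overlapping.

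Among the receptors, Cx3cr1 and Ccr1 drew the most counts. Ccr1, the receptor of Ccl3, Ccl6 and Ccl9, had 6.24 and 5.81 CPM in the GCE/+ samples and 2.88 and 2.25 CPM in the GCE/GCE samples, a log2 fold change of -1.23 (SE 0.19, edgeR adjusted p = 0.0331). Cx3cr1, a marker of tissue macrophages, had 37.5 and 40.7 CPM against 26.3 and 16.2 CPM. Its groups did not overlap, but GCE/GCE replicate 2 lay well below replicate 1, and the log2 fold change of -0.88 (SE 0.20) just missed the threshold (edgeR adjusted p = 0.103). Without GCE/GCE replicate 1 it was -1.27 (edgeR adjusted p = 1.71e-10), and without GCE/GCE replicate 2 it was -0.57 (edgeR adjusted p = 0.0309), while it was not called without GCE/+ replicate 1 or 2 (edgeR adjusted p = 0.163 and 0.115).

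The monocyte receptor Ccr2 had 0.772 and 0.363 CPM against 0.138 and 0.212 CPM (log2 fold change -1.70, SE 0.49, edgeR adjusted p = 0.198), and was called at -2.12 and -2.04 when GCE/+ replicate 2 or GCE/GCE replicate 2 was left out (edgeR adjusted p = 0.0593 and 0.0826). It was at -1.04 and -1.43 and not called without GCE/+ replicate 1 or GCE/GCE replicate 1 (edgeR adjusted p = 0.753 and 0.261). The groups of Ccr2 did not overlap, at levels that few counts support. Cxcr2, the neutrophil receptor, had 1.92 and 0.842 CPM against 1.33 and 1.37 CPM, both GCE/GCE values between those of GCE/+ (log2 fold change -0.05, SE 0.37). Ccr7 and Xcr1, known from dendritic cells, had between 0.121 and 0.641 CPM in all samples, with overlapping groups and log2 fold changes of -0.39 (SE 0.40) and -0.62 (SE 0.53).

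The other 26 members had too few counts to be tested, and no change was readable for them. In all 4 samples, 0 counts were found for 9 ligands, namely Ccl17, Ccl19, Ccl21a, Ccl21b, Ccl21c, Ccl27b, Ccl28, Cxcl17 and Xcl1, which allows up to 3 counts in a sample. Ccl19, the Ccl21 genes and the Ccl27 genes have near-identical copies in the mouse genome, so that their counts, that of Ccl27a included, are uncertain. Another 5 members stayed below 3 counts in every sample, namely Ccl5, Ccl8, Ccl26, Ccr6 and Cxcr1, and are at the detection floor. The remaining 12 reached 3 or more counts in at least 1 sample. Of these, Ccr8 had 25 counts in GCE/+ replicate 1 and 3, 5 and 5 counts in the other samples, and among all the settings tried it was called lower only in the fit without GCE/+ replicate 2. Ccr3 had 12 and 7 counts in GCE/+ and 3 and 3 counts in GCE/GCE samples. Cxcr3, a receptor of T cells and the only member here on chromosome X, had 13 and 8 counts in GCE/+ and 6 and 6 counts in GCE/GCE samples. Ccl1, Ccr10, Cxcr5, Cxcr6, Ccr9, Cxcl11, Ccl20, Ccr4 and Ccl22 had highest counts of 10, 10, 9, 8, 7, 6, 5, 5 and 4.

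To compare levels between genes, CPM were divided by exon length in kb, which left 19 members with a mean of at least 1 CPM per kb in GCE/+ cells. On this scale, Ccl2 led with 79.4 and 79.3 CPM per kb in the GCE/+ samples. Cxcl14 followed with 87.0 and 64.3 CPM per kb, Ccl4 with 62.8 and 65.7 and Ccl3 with 60.4 and 64.0, each overlapping its neighbour in the order. A clear step led down to Cxcl2 with 32.4 and 29.9 CPM per kb. Just below it lay Ccl7 with 28.3 and 22.3, whose values overlapped those of Cxcl1 with 23.9 and 16.8. In the GCE/GCE samples Cxcl14 was at 80.8 and 85.9 CPM per kb, above Ccl2 at 42.3 and 43.9 and Ccl4 and Ccl3 at 28.8 to 34.4. The leading receptor, Cx3cr1, had 8.33 and 9.04 CPM per kb in GCE/+ samples, and Ccr1 had 2.20 and 2.05. Cx3cr1 was thus above its ligand Cx3cl1, with 1.31 and 0.958 CPM per kb, while Ccr1 was far below Ccl3 and just above Ccl9, with 1.92 and 1.77.

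**Figure D3:**
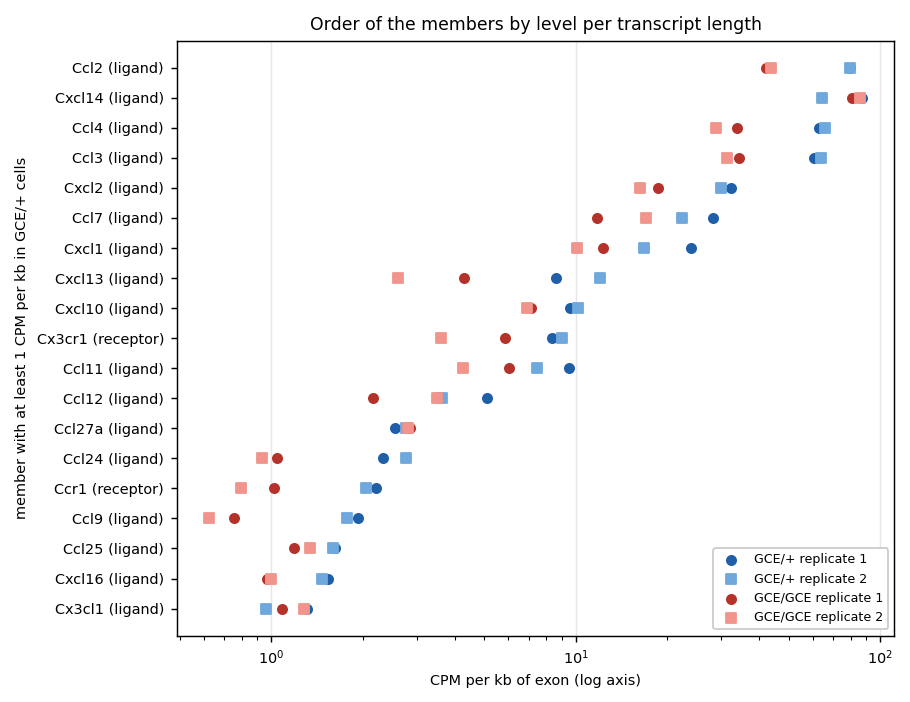
CPM per kb of exon (x axis, log scale) in each of the 4 samples for the 19 members with a mean of at least 1 CPM per kb in GCE/+ cells, ordered by that mean. Ccl2, Cxcl14, Ccl4 and Ccl3 lead in GCE/+ samples, and Cxcl14 leads in both GCE/GCE samples.

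Chemokine genes lie in clusters that arose by duplication. Of the 5 neighbours Ccl5, Ccl9, Ccl6, Ccl3 and Ccl4 on chromosome 11, 4 were tested and 3 called, with log2 fold changes from -1.54 to -0.92. The other group on chromosome 11 (Ccl2, Ccl7, Ccl11, Ccl12, Ccl8 and Ccl1) had 4 tested members, of which Ccl2 was called, from -0.88 to -0.63. In the chromosome 5 cluster of Cxcl5, Cxcl3, Cxcl15, Cxcl1 and Cxcl2 the range was -0.86 to -0.17. The receptor cluster on chromosome 9 that holds Xcr1, Ccr1 and Ccr2 ranged from -1.70 to -0.62 over its 4 tested members. The other 3 clusters held 4 tested members and 0 calls. They were Cxcl9, Cxcl10 and Cxcl11 on chromosome 5 (median -0.26), the cluster of Ccl27a on chromosome 4 (0.09 for Ccl27a) and that of Cx3cl1 on chromosome 8 (0.06 for Cx3cl1). Cxcl13 and Ccl24 were called and lie in none of these clusters.

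Macrophage markers moved in the same direction as these genes. Of 22 macrophage genes listed, 21 were found, none at 0 counts in all samples, and Spi1 was not found under that symbol. All 21 were tested, and 14 were called lower and 0 higher, against 0.895% and 0.888% of all tested genes. Of the 21, 20 had negative log2 fold changes, and their median was -0.97. Their summed CPM was 446 and 460.0 in the GCE/+ samples and 281 and 197 in the GCE/GCE samples. The lowest sum was in GCE/GCE replicate 2, which was also below replicate 1 for 8 of the 9 called members, with Ccl2 as the exception. Over all 29 tested members, replicate 2 was below replicate 1 for 18 in GCE/GCE and for 19 in GCE/+ samples. For the 21 macrophage markers these counts were 20 in GCE/GCE and 10 in GCE/+ samples. In bulk samples, fewer cells of a type and less RNA per cell cannot be told apart.

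Each member was therefore set against the summed macrophage markers of its own sample, an alternative chosen after seeing the data. On this ratio, Cxcl13, Ccl9, Ccl24 and Ccr1, 4 of the 9 called members, had both GCE/GCE values below both GCE/+ values. Of all tested genes 0.467% did so, but the 9 had been called lower in these same data, so the shares cannot be compared. Whether these 4 fell beyond single macrophage genes was not tested. Per 100 CPM of macrophage markers, Cxcl13 had 2.22 and 3.0 CPM in GCE/+ and 1.75 and 1.51 CPM in GCE/GCE samples. Ccl9 had 1.29 and 1.16 against 0.802 and 0.952, Ccl24 had 0.677 and 0.777 against 0.478 and 0.613, and Ccr1 had 1.40 and 1.26 against 1.02 and 1.14 on the same ratio. The groups overlapped for the remaining 5 called members (Ccl2, Ccl3, Ccl4, Cxcl1 and Cxcl2), whose log2 ratio of group means was between -0.09 and 0.11. These means hide replicates that differ. Ccl2 had 14.5 and 14.0 in GCE/+ and 12.2 and 18.1 in GCE/GCE samples. For Ccl2, Ccl3 and Ccl4, GCE/GCE replicate 1 lay below both GCE/+ values and replicate 2 above both. For Cxcl1 both GCE/GCE values lay between those of GCE/+, and for Cxcl2 only that of replicate 1 did. Over all 29 tested members, 6 lay below, Ccl6 among them, and 9 lay above, Cxcl14 and Cx3cl1 among them, as 93.9% of all tested genes did. Cx3cr1 had 8.41 and 8.85 against 9.35 and 8.23 per 100 CPM, and its groups overlapped.

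**Figure D4:**
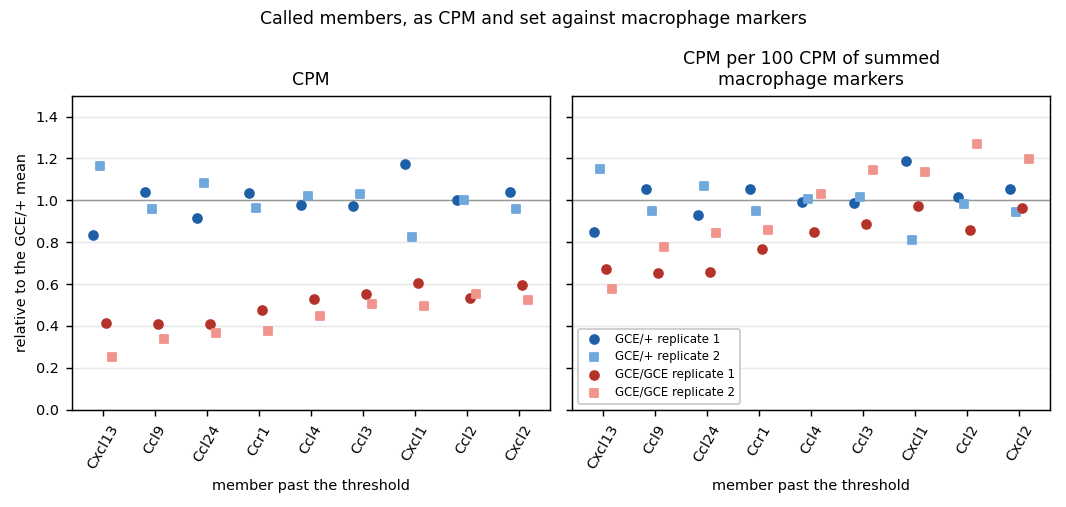
The 9 called members in the 4 samples, relative to the mean of the 2 GCE/+ samples, as CPM (left) and as CPM per 100 CPM of summed macrophage markers (right). On the left all GCE/GCE points lie below all GCE/+ points of the same gene, and on the right they do so for Cxcl13, Ccl9, Ccl24 and Ccr1.

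Other lists moved less with these genes or against them. Of 10 endothelial markers 0 were called, with a median log2 fold change of -0.44. The 14 genes that respond to tissue dissociation, led by Fosb, Fos and Egr1, had 0 calls and a median of -0.13, and summed to 9120 and 7212 CPM in GCE/+ and 8903 and 6990 CPM in GCE/GCE samples. Fibroblast markers had 0 calls of 10 and a median of -0.12. Among 7 tested cartilage genes 2 were called higher, Sox9 and Col9a1, where 0.888% of all tested genes were. The cartilage list summed to 565 and 914 CPM in GCE/+ and 1281 and 1393 CPM in GCE/GCE samples. The lists for neutrophils (2 tested), mast cells (4), megakaryocytes and platelets (4), lymphoid cells (2), erythroid cells (6), pericytes (6), muscle (8), epidermis (6) and Schwann cells (5) had 0 calls, with medians between -0.30 and 0.21. The part of these cell types in the chemokine differences was not tested.

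Genes that act downstream of chemokine receptors were listed as well. Of 29 such genes, all tested, 3 were called lower and 0 higher, where 0.895% of all tested genes were called lower, with a median log2 fold change of -0.12. Gnb1, Rac1 and Gnai2, which encode a G protein subunit, a small GTPase and an inhibitory G protein subunit, were the most abundant, with log2 fold changes of 0.02, 0.02 and -0.12. The called genes, named after their values were seen, were Rac2, Lyn and Was, which are known from blood cells, at -1.09, -0.74 and -0.93. Of 16 genes of the NF-kB pathway, 1 was called lower, Tnf, where 0.895% of all tested genes were. Tnf had 36.2 and 35.0 CPM in GCE/+ and 22.7 and 20.6 CPM in GCE/GCE samples (log2 fold change -0.72, SE 0.10, edgeR adjusted p = 0.0288). The median of the NF-kB list was -0.10.

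Chemokine genes with names outside the rule were listed separately, together with Cxcl12, Cxcr4 and Cxcr7, which match the rule but were left out. Of these 10 genes, 8 were tested, 3 called lower and 0 higher, against 0.895% and 0.888% of all tested genes. The platelet chemokine Pf4 had 9.18 and 7.34 CPM against 4.53 and 4.48 CPM, and Ccrl2, a receptor that binds chemerin, had 11.4 and 10.7 CPM against 7.06 and 5.29 CPM. Cxcl12, the third, had 539.6 and 602 CPM against 414 and 420.1 CPM, a log2 fold change of -0.45 (SE 0.10, edgeR adjusted p = 0.0944). Cxcr4 and Cxcr7 had -0.37 and -0.03 and were not called. The scavenger receptor Ackr4 had 2.86 and 3.06 CPM against 4.67 and 3.97 CPM, a log2 fold change of 0.55 (SE 0.19, edgeR adjusted p = 0.292). Ppbp, an ELR ligand of CXCR2, had 0.279 and 0.268 CPM against 0.396 and 0.278 CPM. Its log2 fold change of 0.29 (SE 0.39) was not called (edgeR adjusted p = 0.924). Of the 8 tested genes, 6 had negative and 2 positive log2 fold changes.

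**Figure D5:**
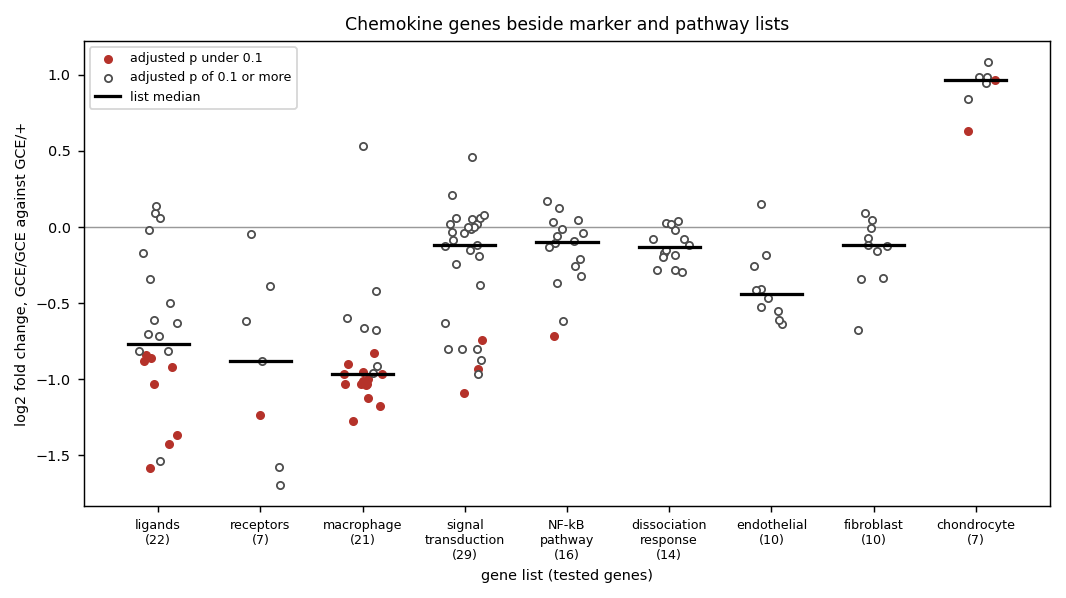
Log2 fold change in GCE/GCE against GCE/+ cells (y axis) of the tested ligands and receptors beside genes of 7 other lists, with filled points for an adjusted p under 0.1 and bars at list medians. The medians of ligands (-0.77), receptors (-0.88) and macrophage markers (-0.97) lie below those of the signal transduction (-0.12), NF-kB (-0.10) and fibroblast (-0.12) lists.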

How the data were processed

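Limbs were digested with collagenase, live GFP+ cells were sorted and libraries were made with a kit that does not keep the strand. The authors used TopHat2 with UCSC gene models for mapping to mm9, and HTSeq (intersection-strict) to count the fragments of each gene. The deposited values are these raw counts per gene symbol. Fragments that could not be given to 1 gene were left out.

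Genotype and replicate number came from the labels. Each sample came from 1 embryo, and p-values rest on the spread between these embryos together with error borrowed from the other genes. Counts were filtered with filterByExpr, scaled by TMM and tested with edgeR 4.0.16 in R 4.3.3 by the quasi-likelihood test, two-sided, with Benjamini-Hochberg adjustment over 15645 genes and a threshold of 0.1. Standard errors were derived from the F statistic. The procedure was tested on simulated data. Alternatives were DESeq2 1.42.0, RLE and upper quartile scaling, no filter, a minimum of 10 counts per sample, a replicate block, an adjusted p under 0.05, transcript length offsets without and with the block, leaving out each sample in turn, and the ratio to macrophage markers.

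The members and lists were chosen with earlier results of these data known. A result on 1 member is not reported here. The others are named, with all 4 values where the mean was at least 1 CPM or the gene was called. For exon lengths, 98.03% of the symbols and 54 of the 55 members were found in GRCm38 gene models, and no coordinates were converted from mm9. Promoters are RefSeq's for GRCm38.p6. Python 3.11.15, pandas 2.3.3 and matplotlib 3.10.9 were used.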

Additional observations from a re-analysis of the deposited data

How the results depend on the processing

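Ccl2, Ccl3, Ccl4, Ccl9, Ccl24, Cxcl2 and Ccr1 were called in all 8 alternatives of the fit, at an adjusted p under 0.05 and in all 4 fits that left out a sample. Cxcl1 was lost under upper quartile scaling and at 0.05, and Cxcl13 under transcript length offsets with the replicate block (edgeR adjusted p = 0.123). Between 7 and 11 ligands were called lower throughout, and 0 ligands or receptors higher. The receptors called lower were 2 in DESeq2, 3 without the filter, 2 with at least 10 counts in every sample, 2 with the replicate block and 2 with length offsets and the block, Cx3cr1 being added in each. Leaving out a sample gave 1 to 3 receptors, with 3 without GCE/+ replicate 2, GCE/GCE replicate 1 or GCE/GCE replicate 2. Over all genes, 279 were called, 502 in DESeq2, 425 without the filter, 122 at an adjusted p under 0.05 and 197 to 984 when a sample was left out, with 984 without GCE/+ replicate 2 and 696 without GCE/GCE replicate 1. In these fits the lone sample of a genotype is assumed to vary like the others. The cause of these moves was not tested.

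The replicate numbers were not shown to pair the samples, since deviations of same-numbered samples had a correlation of 0.017 across 13469 genes. With the replicate block 280 genes were called, and 9 ligands, Ccl11 added. Signs turned only in members that were not called. Cxcl9 was at 0.10 with the block, 0.01 with length offsets and 0.12 with both, and Cxcr2 at 0.04 with the block and 0.06 with both. Leaving out a sample gave log2 fold changes from -0.73 to 0.08 for Ccr7, -0.14 to 0.30 for Cx3cl1, -0.06 to 0.37 for Cxcl14, -1.27 to 0.60 for Cxcl15, -0.60 to 1.05 for Cxcl9, -0.51 to 0.67 for Cxcr2 and -1.04 to 0.05 for Xcr1. Longer genes had higher log2 fold changes (Spearman's rho 0.258 over 15472 genes, which are not independent replicates), and the tested ligands were short, with a median of 1480 against 3310 bases for all genes. With length offsets the median of the tested ligands was -0.72. Depth limits what can be said of the 26 untested members.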
